A study of Homo sapiens with 6 samples.

Results

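Small nucleolar RNAs were measured in the established human breast cancer line MDA-MB-231, which is triple-negative, as part of a comparison of cells overexpressing a mutant of the histone chaperone DAXX that lacks SUMO binding with cells overexpressing wild-type DAXX. SUMO is a small protein modifier. A gene was taken as a member when a transcript cluster of the array carried its symbol alone and that symbol started with SNORD or SNORA followed by a digit. These were 237 of the 22465 genes of the series. They comprised 123 SNORD genes outside the SNORD115 and SNORD116 arrays, 64 SNORA genes, 31 SNORD115 copies and 19 SNORD116 copies. A further 143 snoRNA symbols occurred only in clusters that list more than 1 entry and were not counted as members. The other entries were mostly a host gene or another snoRNA, and for SNORA73B its own symbol repeated.

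The DSM OE cells expressed DSM, in which both SUMO-interacting motifs of DAXX are disabled, and the DAXX OE cells expressed the wild-type protein. Both were stable populations of the same line, made with a lentiviral vector that drives a cDNA carrying FLAG, MYC and His tags from the cytomegalovirus immediate early promoter, and selected in puromycin at 2 µg/mL. Cells of both groups were grown for 24 h in complete DMEM, and 200 ng of total RNA was labelled for each array. There were 3 arrays per group, from 1 population per construct, so that p-values measure the spread between arrays of those populations and not between independent transductions. Control-vector and DAXX-knockdown cells were not analysed here, and every difference given is DSM OE minus DAXX OE.

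Small nucleolar RNAs are short noncoding RNAs that work inside ribonucleoprotein particles in the nucleolus. C/D box snoRNAs (SNORD) pair with ribosomal RNA and direct the methyltransferase fibrillarin to methylate the ribose at the paired site, whereas H/ACA box snoRNAs (SNORA) direct the pseudouridine synthase dyskerin. A few act instead in the cleavage, folding or acetylation of the ribosomal RNA precursor, among them U3 (SNORD3 genes), U13 (SNORD13) and U14 (SNORD14 genes). In human cells most are cut out of spliced introns of protein-coding or noncoding host genes, while U3 and U13 have promoters of their own. SNORD115 and SNORD116 are tandem copies in the imprinted Prader-Willi region of chromosome 15, with brain as the main site of SNORD115 expression, and SNORD113 and SNORD114 are tandem copies in the imprinted region of chromosome 14 that also holds MEG8.

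Values are log2 signals from robust multi-array averaging (RMA), in which background is corrected, probes are quantile-normalized across arrays and each cluster is summarised by median polish. Over the 6 arrays the median was 4.38 for 23 background probe sets and 6.73 for genes. Single background sets ranged between 1.70 and 11.7, so that a signal above their median is a rough guide and no proof of expression. The members were 33 to 250 nucleotides long in RefSeq, with a median of 91, and 9 exceeded 200 nucleotides. A signal at such a cluster can come from the mature snoRNA, from its precursor or from unspliced host RNA, which the array does not separate. RNA was taken with RNeasy columns, which retain short RNAs less well than long ones, and the part of this in the signals was not tested.

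Among the 6 arrays, the one that departed from the rest was DAXX OE replicate 1. Its correlation with them over genes was 0.973 to 0.980, against 0.996 or more between any pair of the others, and the SD of its signals over genes was 1.63, against 1.82 to 1.85. It was compressed at both ends. Genes above the gene median were lower in it by a median of -0.30 than the mean of DAXX OE replicates 2 and 3, and genes at or below background were higher by 0.24. Values without this array are therefore given beside the main results. DAXX itself, counted together with the transgene where its probes match it, gave 9.31, 9.36 and 9.36 in DSM OE against 8.68, 8.95 and 8.94 in DAXX OE, a difference of 0.49 (limma adjusted p = 0.416, and 0.40 with adjusted p = 0.0144 without DAXX OE replicate 1). Of 8 mesenchymal markers of such lines, 8 lay above background, with VIM at a mean of 11.9, and 8 of 9 luminal markers did so too, but PGR stayed at 3.57 in DSM OE and 3.73 in DAXX OE. None of these markers passed the test.

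No snoRNA gene passed the test in the comparison of DSM OE with DAXX OE. With limma's moderated test on the 6 arrays and Benjamini-Hochberg adjustment over all genes, 0 of the 237 members had an adjusted p under 0.05, and 14 of all 22465 genes did (0.0623%). The lowest adjusted p of a member was 0.663. At an unadjusted p under 0.05 there were 15 members, which is 6.33% of the members beside 5.16% of all genes. Of these, 8 had the higher mean in DSM OE and 7 the lower, beside 3.77% and 1.38% of all genes in those directions. Past the thresholds of the study's methods, a fold beyond 1.3 with an unadjusted p under 0.05, there were 6 members beside 2.25% of all genes, 3 of them higher in DSM OE (1.74% of all genes) and 3 lower (0.503%). With both directions pooled these shares, 6.33% and 2.53% of the members, lay near their background. Taken apart, the lower direction held a larger share of the members than of all genes, and the higher direction a smaller one. The split by direction was not tested. Without DAXX OE replicate 1, 28 members had an unadjusted p under 0.05 (11.8%, beside 15.1% of all genes), 11 higher (8.86% of all genes) and 17 lower (6.19%).

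Differences between the groups were small over the whole set. The median difference was 0.04 over the 237 members and 0.01 over all genes, and it was -0.02 and 0.00 without DAXX OE replicate 1, so that the sign over the members turned with 1 array. With the 6 arrays single members ranged from -0.75 (SNORD114-1) to 0.77 (SNORD90). Groups did not overlap for 22 members, or 9.28%, beside 19.2% of all genes. Of these, 10 were higher in DSM OE, beside 13.7% of all genes, and 12 were lower, beside 5.5%. Among the 93 members above the gene median, 5 did not overlap (5.38%, all higher in DSM OE), beside 23.9% of all such genes.

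Signals of snoRNA probe sets spread more between arrays of 1 group than those of genes in general. Within DSM OE the median SD over members was 0.110, against 0.0489 over all genes. Above the gene median it was 0.0895 for members against 0.0403 for all genes. The wider spread was not particular to snoRNAs. The median SD was 0.105 over microRNA genes and 0.102 over other small RNA genes. The 95% confidence interval of the difference lay within a 2-fold change in either direction for 214 of the 237 members (90.3%), against 98.2% of all genes, and within 1.3-fold for 67 members. For the remaining 23 members a difference of more than 2-fold was within the interval.

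In the H/ACA class the groups differed mainly through DAXX OE replicate 1. The median SNORA signal was 7.50, 7.37 and 7.30 in DSM OE, against 6.96, 7.27 and 7.35 in DAXX OE. The low value belongs to DAXX OE replicate 1, and the remaining 5 arrays overlap. The median SNORA difference was 0.11, with 47 of 64 genes above 0, and without DAXX OE replicate 1 it was 0.01 with 37 above 0. For the other SNORD genes the median signal was 5.94, 5.65 and 5.90 in DSM OE and 5.92, 5.87 and 6.04 in DAXX OE, and their median difference was 0.02 (-0.05 without DAXX OE replicate 1). These groups overlap with all arrays in place. They include the SNORD113 and SNORD114 copies, which were set apart after their values were seen. The 83 SNORD genes without those copies had medians of 7.44, 7.39 and 7.41 in DSM OE. In DAXX OE their medians were 6.81, 7.32 and 7.54. There too DAXX OE replicate 1 was the lowest array, so its low value was not particular to SNORA.

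**Figure D1:**
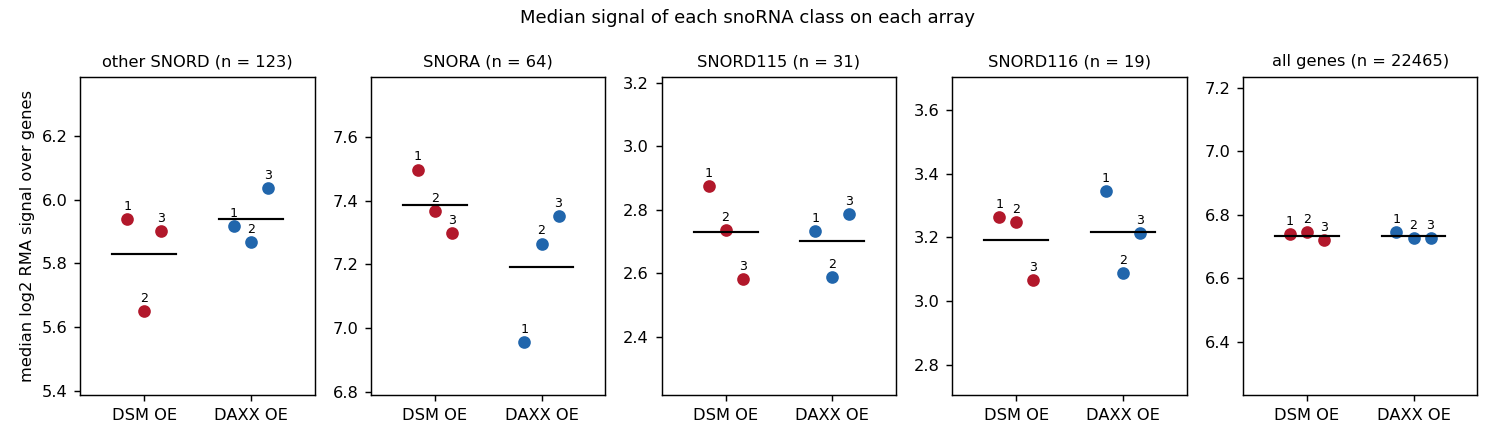
Median log2 RMA signal of each snoRNA class and of all genes on each array, in DSM OE (red) and DAXX OE (blue). Digits give the replicate and bars the mean of the 3 medians, and each panel has its own axis range of the same height. For SNORA, DAXX OE replicate 1 (6.96) lies below the other 5 arrays (7.27 to 7.50).

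At both ends of the signal range the sign of a member's difference followed its signal, as it did for genes in general. Of the 93 members above the gene median, 82 had a difference above 0, with a median of 0.12, beside a median of 0.10 for all genes above it. Of the 85 members at or below background, 26 had a difference above 0, and their median was -0.07, beside -0.08 for all genes at that level. Of the 59 members between these levels, 23 had a difference above 0, with a median of -0.04, beside -0.09 for all such genes. There DAXX OE replicate 1 departed from the mean of replicates 2 and 3 by a median of -0.03 over members. Over all such genes it was 0.27, so members and genes differed at this level. Without DAXX OE replicate 1 the medians above the gene median were -0.00 for members, 44 of 93 being above 0, and 0.01 for all genes. DAXX OE replicate 1 was lower than the mean of replicates 2 and 3 by a median of -0.38 over the 93 bright members.

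**Figure D2:**
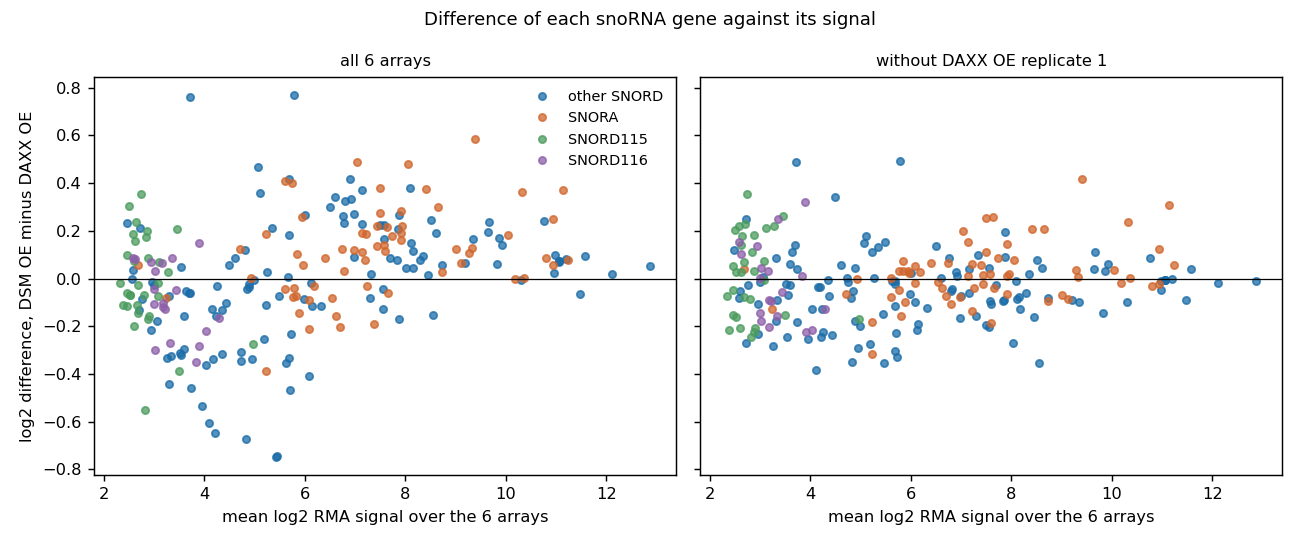
Log2 difference (DSM OE minus DAXX OE) of each of the 237 snoRNA genes against its mean log2 RMA signal over the 6 arrays, with all 6 arrays (left) and without DAXX OE replicate 1 (right). Colours mark the 4 classes. On the left the points above the gene median of 6.73 lie mostly above 0 (82 of 93), and on the right 44 of 93 do.

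Of the snoRNAs that act on the small-subunit rRNA precursor, SNORD13 and the SNORD3 genes had bright probe sets and were close between the groups. SNORD13, the U13 RNA that guides acetylation of the small-subunit rRNA, gave 12.94, 12.83 and 12.91 in DSM OE against 12.72, 12.89 and 12.92 in DAXX OE. SNORD3A, a U3 gene, gave 11.26, 11.16 and 11.31 in DSM OE against 10.99, 11.27 and 11.22 in DAXX OE. In both genes DAXX OE replicate 1 was the lowest array and the other 5 overlapped. The SNORD13 difference was 0.05 (SE 0.09, 95% interval -0.16 to 0.26, adjusted p = 0.779), and the SNORD3A difference was 0.08 (SE 0.10, interval -0.16 to 0.32, adjusted p = 0.712). Both were close to 0 without DAXX OE replicate 1, at -0.01 and -0.00.

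All 5 SNORD3 genes, near-identical U3 copies on chromosome 17, had differences of 0.07 to 0.10, with intervals within 1.3-fold. Signals of single copies cannot be told apart, and SNORD3B-1 and SNORD3B-2 shared every value. Their median difference was -0.00 without DAXX OE replicate 1.

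The 4 SNORD14 genes encode U14, a C/D box RNA needed for processing of the small-subunit rRNA as well as for its methylation, and are read from introns of RPS13 and HSPA8 on chromosome 11. SNORD14E gave 7.14, 7.11 and 7.10 in DSM OE against 5.92, 7.02 and 7.16 in DAXX OE, a difference of 0.42 (adjusted p = 0.682) that was 0.03 without DAXX OE replicate 1. SNORD14D showed the same arrangement, at 7.12, 6.93 and 7.32 in DSM OE against 6.17, 7.22 and 7.18 in DAXX OE. Apart from DAXX OE replicate 1 the groups overlapped in both. SNORD14D differed by 0.27, and SNORD14A and SNORD14B by 0.04 and 0.08, and these 3 were at -0.07, -0.08 and -0.09 without that array. The 95% interval of SNORD14E reached from -0.28 to 1.12. Over the 4 copies the median difference was 0.17, and -0.08 without DAXX OE replicate 1.

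The largest difference of a member above background was that of SNORD90, a C/D box snoRNA in an intron of RC3H2 on chromosome 9. Named after its values were seen, it gave 6.40, 5.91 and 6.17 in DSM OE against 4.84, 5.55 and 5.80 in DAXX OE. The lowest DSM OE array exceeded the highest DAXX OE array. The difference was 0.77 (1.70-fold, SE 0.25, 95% interval 0.19 to 1.35, unadjusted p = 0.0160, adjusted p = 0.682), and 0.49 (adjusted p = 0.197) without DAXX OE replicate 1. RC3H2, a ubiquitin ligase of the Roquin family, differed by 0.30 (0.13 without that array). SNORD90 lay below the gene median, and it was the only member past the study's thresholds without DAXX OE replicate 1, beside 1.07% of all genes (0.734% higher in DSM OE).

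Among all 11232 genes above the gene median, 2433 had higher values in all DSM OE arrays. Of the 52 C/D box genes above it, SNORD58A alone did. It gave 9.80, 9.70 and 9.86 in DSM OE against 9.30, 9.67 and 9.67 in DAXX OE (difference 0.24, SE 0.12, adjusted p = 0.682). The gap to DAXX OE replicates 2 and 3 was narrow, and without replicate 1 the difference was 0.11. SNORD69, SNORD88C and SNORD60 followed with differences of 0.27, 0.26 and 0.24, or 0.20, 0.09 and 0.09 without that array, and their arrays overlapped.

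In the other direction no C/D box gene above the gene median had all DSM OE arrays below all DAXX OE arrays. SNORD93 gave 8.44, 8.45 and 8.55 in DSM OE against 8.24, 8.83 and 8.84 in DAXX OE, and differed by -0.15 (SE 0.17, adjusted p = 0.694). Here DAXX OE replicate 1 was the lowest of the 6 arrays, whereas replicates 2 and 3 lay above all DSM OE arrays. Without DAXX OE replicate 1, SNORD93 was the 1 member past the threshold and was lower in DSM OE, by -0.35 (SE 0.05, adjusted p = 0.0329), beside 280 of all genes (1.25%, with 0.374% lower in DSM OE). Its spanning gene SNHG26 had no cluster of its own here. SNORD53, SNORD32B and SNORD17 had differences of -0.17, -0.13 and -0.08, and without DAXX OE replicate 1 these were 0.09, -0.20 and -0.16. For SNORD53 that array was the highest, at 8.48.

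The brightest C/D box probe sets after SNORD13 were SNORD105B, SNORD46 and SNORD41. Their differences were 0.02, 0.09 and -0.07, with SEs of 0.08 to 0.12, and -0.02, 0.04 and -0.09 without DAXX OE replicate 1. All overlapped between the groups, and signals of different probe sets are not amounts that can be ranked.

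**Figure D3:**
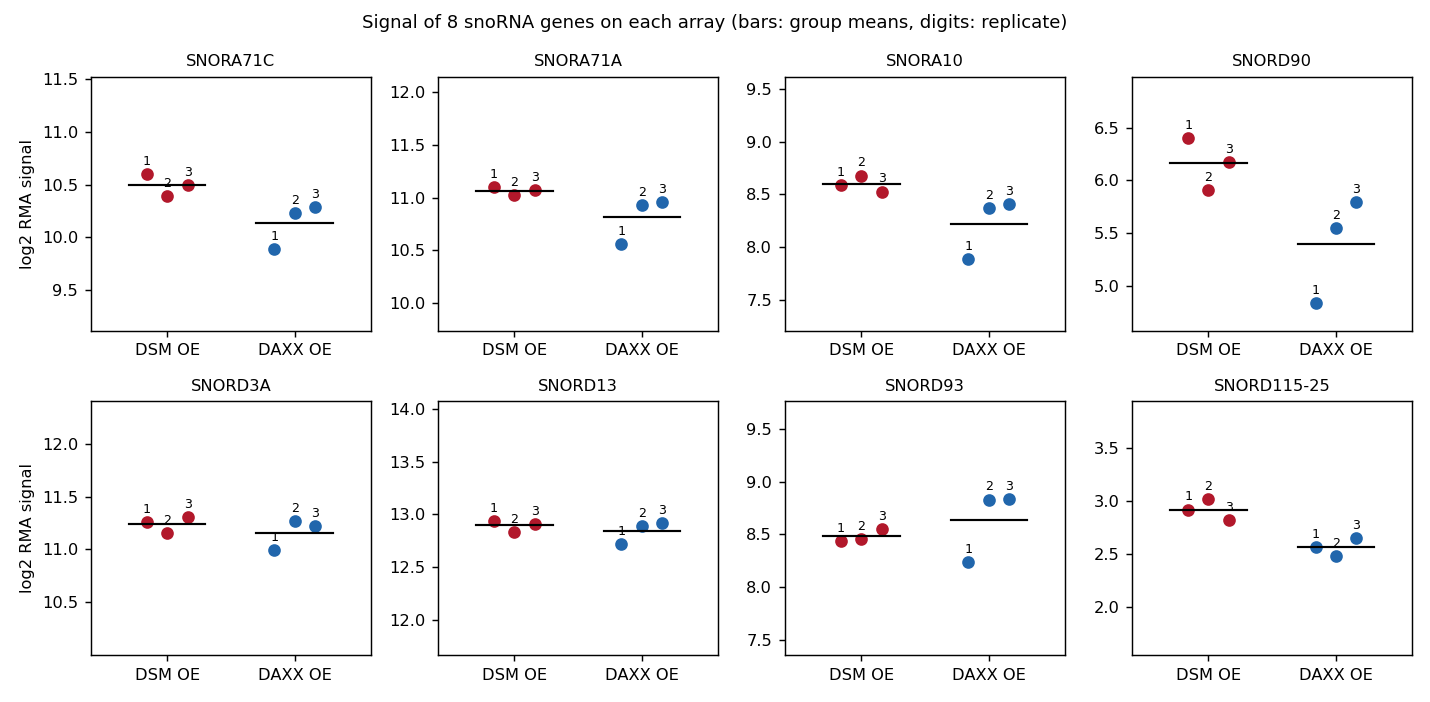
Log2 RMA signal of 8 snoRNA genes on each array, in DSM OE (red) and DAXX OE (blue), with digits for replicates and bars for group means. Axis ranges are of the same height. SNORA71C, SNORA71A, SNORA10, SNORD90 and SNORD115-25 do not overlap between the groups, and SNORD3A, SNORD13 and SNORD93 do.

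Among H/ACA genes, 4 of the 41 above the gene median did not overlap between the groups, beside 23.9% of all genes above it. The SNORA71 family, which lies in the noncoding host SNHG17 and near it on chromosome 20, held 2 of these 4. SNORA71C gave 10.60, 10.39 and 10.50 in DSM OE against 9.89, 10.23 and 10.29 in DAXX OE. SNORA71A gave 11.10, 11.03 and 11.07 in DSM OE against 10.56, 10.93 and 10.96 in DAXX OE. DSM OE was higher in every array of both, with DAXX OE replicate 1 lowest. The differences were 0.36 for SNORA71C (SE 0.13, 95% interval 0.07 to 0.66, unadjusted p = 0.0229, adjusted p = 0.682) and 0.25 for SNORA71A (SE 0.12, adjusted p = 0.682), and 0.24 and 0.12 without DAXX OE replicate 1.

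SNORA71B and SNORA71D, the remaining family members with a cluster of their own, differed by 0.19 and 0.11 and overlapped. They were at -0.06 and 0.04 without that array. SNORA71E shares a cluster with SNORA60 and SNHG11, which was not tested. That cluster was higher in all DSM OE arrays, by 0.10 (0.07 without DAXX OE replicate 1). The host SNHG17 gave 8.33, 8.21 and 8.31 in DSM OE against 8.20, 8.27 and 8.31 in DAXX OE, a difference of 0.02 (SE 0.08; -0.01 without DAXX OE replicate 1). The difference between snoRNA and host was not tested. The copies are similar in sequence, and probes may read more than one of them.

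SNORA10, an H/ACA guide in an intron of the ribosomal protein gene RPS2, gave 8.59, 8.68 and 8.53 in DSM OE against 7.89, 8.37 and 8.41 in DAXX OE. The groups did not overlap, with a difference of 0.37 (SE 0.15, adjusted p = 0.682) that was 0.21 (adjusted p = 0.153) without DAXX OE replicate 1. RPS2 was measured in a cluster shared with SNORA64, which was not tested. That cluster was also higher in all DSM OE arrays, by 0.10 (0.07 without DAXX OE replicate 1). SNORA80B, in an intron of ODC1 (ornithine decarboxylase, the first enzyme of polyamine synthesis), gave 7.37, 7.15 and 7.17 in DSM OE against 6.97, 7.02 and 7.13 in DAXX OE. It too was higher in all DSM OE arrays, by 0.19 on average, and by 0.16 without DAXX OE replicate 1, and ODC1 differed by 0.15 (0.07 without it).

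SNORA23, in an intron of the nuclear import receptor gene IPO7, had nearly the same difference as SNORA10 but overlapped. It gave 11.43, 11.33 and 11.21 in DSM OE against 10.82, 10.76 and 11.27 in DAXX OE, so that here DAXX OE replicate 3, and not replicate 1, departed from its group. The difference was 0.37 (SE 0.15, adjusted p = 0.682), and 0.31 without DAXX OE replicate 1, while IPO7 differed by 0.06 (-0.00 without it). SNORA38B, in NOL11, had the largest H/ACA difference at 0.59 (0.42 without it) and overlapped as well, through DAXX OE replicate 3 at 9.60 beside DSM OE replicate 3 at 9.57.

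The H/ACA genes above the gene median with the lowest differences were SNORA55, SNORA5C, SNORA70D and SNORA22, at -0.19, -0.06, -0.03 and -0.00. All overlapped. SNORA55 was even within DSM OE (7.30, 7.30 and 7.28) and high in DAXX OE replicate 1 alone (7.98, with 7.24 and 7.23 in replicates 2 and 3), and it differed by 0.06 without that array. Below the gene median, SNORA2B gave 5.07, 4.86 and 5.15 in DSM OE against 5.56, 5.36 and 5.33 in DAXX OE, lower in all DSM OE arrays by -0.39 (adjusted p = 0.682, and -0.32 without DAXX OE replicate 1). SNORA48 and SNORA68, among the brightest of the class, differed by 0.08 and 0.06, and by 0.06 and -0.02 without that array.

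The SNORD115 and SNORD116 copies with a cluster of their own were mostly at the background of the array. Of the 31 SNORD115 copies 1 lay above the background median, and of the 19 SNORD116 copies 0 did. The median SNORD115 signal was 2.88, 2.74 and 2.58 in DSM OE and 2.73, 2.59 and 2.79 in DAXX OE. The median SNORD116 signal was 3.26, 3.25 and 3.07 in DSM OE and 3.34, 3.09 and 3.21 in DAXX OE. Both overlapped, with median differences of -0.03 and -0.10 (0.03 and -0.06 without DAXX OE replicate 1). Their common host transcript SNHG14 had no cluster of its own here. Some clusters that list SNORD115 and SNORD116 symbols with other entries were brighter. A cluster with SNHG14 gave 6.11, 6.13 and 6.11 in DSM OE against 5.93, 5.94 and 6.06 in DAXX OE. A cluster with IPW gave 4.95, 4.96 and 4.86 against 5.65, 5.03 and 4.98. They differed by 0.14 and -0.30, or 0.11 and -0.08 without DAXX OE replicate 1, and did not overlap. Others of these clusters overlapped, and none was tested.

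The lowest p of any member belonged to a SNORD115 copy at background level. SNORD115-25 gave 2.92, 3.02 and 2.82 in DSM OE against 2.57, 2.48 and 2.65 in DAXX OE, a difference of 0.35 (SE 0.09, unadjusted p = 0.00617, adjusted p = 0.663) that was also 0.35 without DAXX OE replicate 1. SNORD115-24, the copy above background, gave 4.76, 4.85 and 4.87 in DSM OE against 5.31, 4.97 and 5.03 in DAXX OE. It differed the other way, by -0.28 (adjusted p = 0.682), with no overlap, and by -0.17 without DAXX OE replicate 1. The copies are near-identical in sequence, so neither value can be assigned to 1 copy. SNORD115-2 had the lowest difference of its array, -0.55, with DAXX OE replicate 1 at 3.71 and the other 5 arrays at 2.48 to 2.91, and it was -0.24 without that array. In SNORD116 the brightest copy, SNORD116-23, differed by -0.16 (-0.13 without DAXX OE replicate 1), and the extremes were 0.15 (SNORD116-15) and -0.35 (SNORD116-11), which were 0.32 and 0.01 without it.

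The SNORD113 and SNORD114 copies, set apart after their values were seen, were high on DAXX OE replicate 1, where most other C/D box genes were low. Median SNORD114 signals were 3.57, 3.48 and 3.48 in DSM OE against 4.25, 3.55 and 3.76 in DAXX OE. Median SNORD113 signals were 3.75, 3.73 and 3.77 in DSM OE against 4.52, 3.67 and 3.76 in DAXX OE. In both families it was DAXX OE replicate 1 that was high. It exceeded the mean of replicates 2 and 3 by a median of 0.65 over SNORD114 and 0.83 over SNORD113, against 0.24 over all genes at or below background.

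The median difference was accordingly -0.30 over the 31 SNORD114 copies, 5 of them above 0, and -0.31 over the 9 SNORD113 copies, 0 of them above 0. These medians were -0.07 and -0.01 without DAXX OE replicate 1. The SNORD genes outside the 4 tandem arrays, 83 in number, had a median difference of 0.08, and -0.05 without DAXX OE replicate 1. No copy passed the test. SNORD114-27 gave 5.23, 4.93 and 5.10 in DSM OE against 6.60, 5.53 and 5.36 in DAXX OE (difference -0.74, SE 0.30, adjusted p = 0.682), lower in all DSM OE arrays and -0.36 without DAXX OE replicate 1. SNORD114-1, with the lowest difference of all members, rested on that array at 7.01, with 5.19, 5.03 and 4.97 in DSM OE and 5.15 and 5.28 in the other DAXX OE arrays, and was at -0.15 without it.

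**Figure D4:**
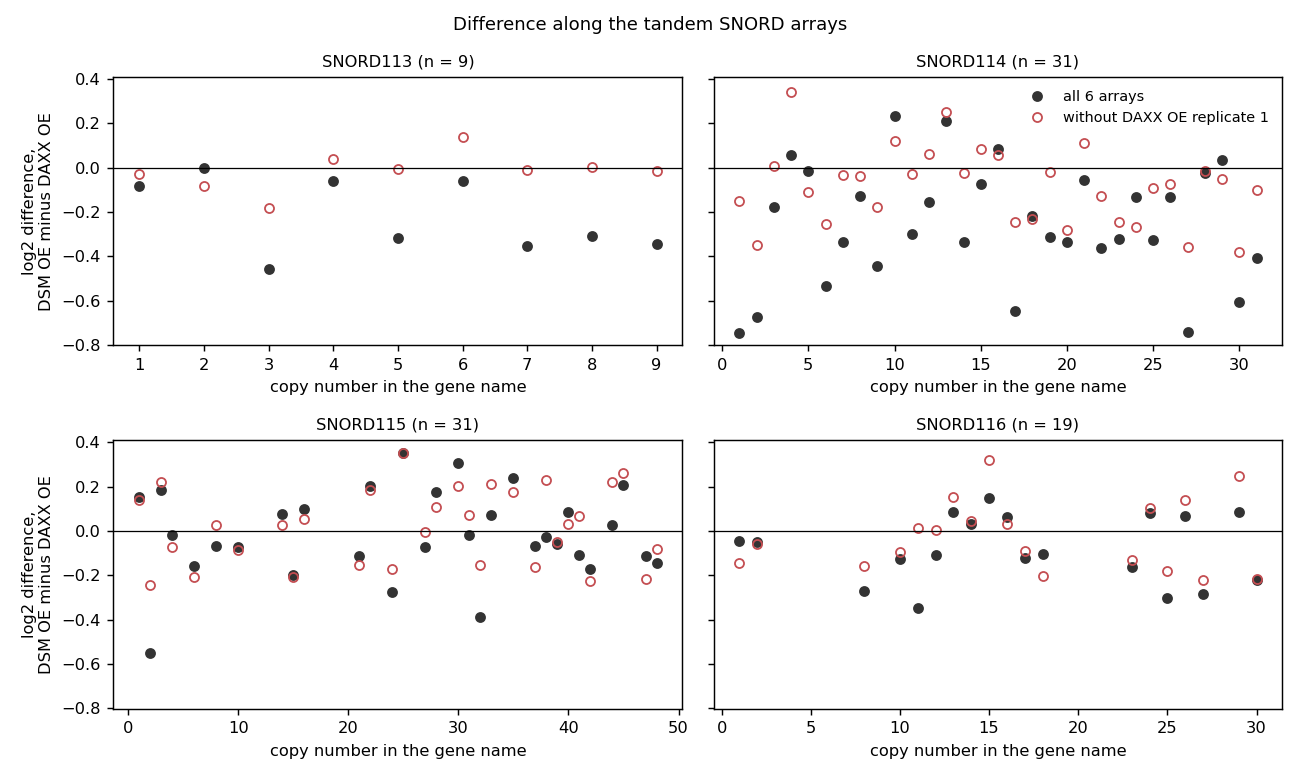
Log2 difference (DSM OE minus DAXX OE) of each measured copy of the SNORD113, SNORD114, SNORD115 and SNORD116 arrays, in order of the copy number in its name, with all 6 arrays (filled) and without DAXX OE replicate 1 (open). Filled points of SNORD113 and SNORD114 lie mostly below 0 (medians of -0.31 and -0.30), and open points lie nearer to 0 (medians of -0.01 and -0.07).

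Among other families of several copies, SNORD12, SNORD88 and SNORA80 followed DAXX OE replicate 1 in the direction of the brighter genes. The 3 SNORD12 genes, in the noncoding host ZFAS1, had a median difference of 0.21, and -0.13 without that array. SNORD12C, for instance, gave 7.64, 7.61 and 7.57 in DSM OE against 6.55, 7.80 and 7.80 in DAXX OE. The sign thus turned with 1 array. The 3 SNORD88 genes had a median difference of 0.23 (0.02 without it) and the 3 SNORA80 genes 0.14 (0.07). The 6 SNORA70 and 4 SNORA11 genes did not follow that array, with median differences of -0.04 and 0.01 (0.01 and 0.01 without it). DAXX OE replicate 1 departed from the mean of replicates 2 and 3 by medians of 0.06 and 0.02 over them.

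Host genes were found by position in RefSeq without regard to strand. Of the 237 members, 214 lay within 1 spanning gene, 15 within several and 8 within none, the last including SNORD13 and the 5 U3 genes. SNHG14 spanned 50 members. Host and snoRNA could be set side by side for 78 pairs with 64 hosts, none of which passed the test. The hosts had a median difference of 0.09, and -0.01 without DAXX OE replicate 1. In 45 of 78 pairs host and snoRNA had the same sign (42 without DAXX OE replicate 1). Spearman's rho over the pairs was 0.19, and 0.36 without that array, and since pairs share arrays and some share a host it is a description only.

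snoRNAs of 1 host did not all point the same way. NCL encodes nucleolin and differed by -0.04, and its intronic SNORA75, SNORD20 and SNORD82 differed by 0.03, -0.25 and -0.01 (-0.10, -0.27 and -0.10 without DAXX OE replicate 1). NOP58 encodes a C/D core protein and differed by -0.02, and its SNORD11, SNORD11B and SNORD70 differed by -0.23, -0.04 and 0.34. SNORD70 turned to 0.00 without DAXX OE replicate 1, and SNORD11 was then at -0.33. None of these snoRNAs passed the test, and the differences among them were not tested.

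**Figure D5:**
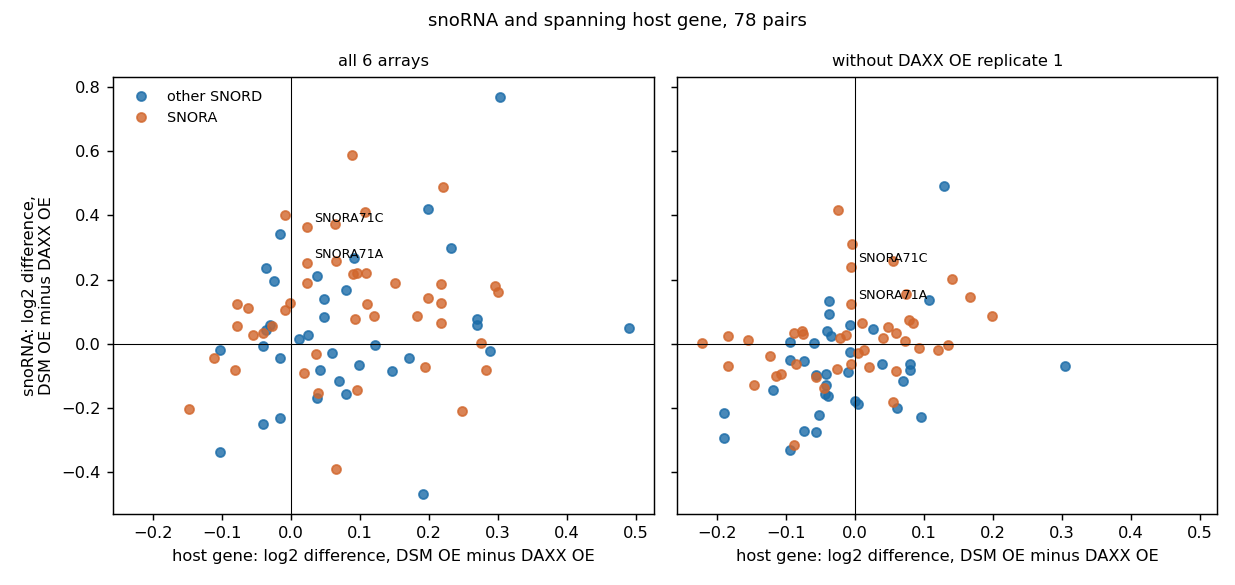
Log2 difference (DSM OE minus DAXX OE) of 78 snoRNA genes against that of the gene spanning them, with all 6 arrays (left) and without DAXX OE replicate 1 (right). SNORA71C and SNORA71A, at 0.36 and 0.25, stand over a host difference of 0.02 (SNHG17).

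Genes for proteins of the snoRNA particles that had a cluster of their own were close between the groups. Of the C/D core, the methyltransferase FBL gave 10.20, 10.25 and 10.27 in DSM OE against 10.09, 10.24 and 10.21 in DAXX OE, a difference of 0.07 (SE 0.08, adjusted p = 0.715). NOP58 and the RNA-binding SNU13 differed by -0.02 and 0.05. Of the H/ACA core, NHP2, NOP10 and GAR1 differed by 0.05, 0.08 and 0.04. The H/ACA assembly factors NAF1 and SHQ1 differed by 0.09 and 0.21. All 8 lay between -0.09 and 0.02 without DAXX OE replicate 1. Of these 8 genes 0 passed the test, with adjusted p between 0.682 and 0.948. NOP56 and dyskerin (DKC1) were measured only in clusters shared with other symbols, which were not tested. The DKC1 cluster gave 9.47, 9.52 and 9.57 in DSM OE against 9.27, 9.41 and 9.43 in DAXX OE. It did not overlap, and differed by 0.15 (0.10 without DAXX OE replicate 1). The NOP56 cluster overlapped and differed by 0.11 (0.03 without that array).

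The wider lists of the pathway likewise held 0 genes past the threshold with the 6 arrays. These were 10 assembly factors, 7 snoRNA processing enzymes, 12 genes of the U3 particle and small-subunit processome, 10 nucleolar proteins and RNA polymerase I genes, and 5 noncoding host genes. Their median differences were 0.09, 0.16, 0.06, 0.07 and 0.10, beside 0.10 for all genes above the gene median. Without DAXX OE replicate 1 they lay between -0.04 and 0.02. The 21 Cajal body RNAs, relatives of snoRNAs that guide modification of spliceosomal RNAs, had a median of 0.15 (0.04 without it). Of them 3 (14.3%), all higher in DSM OE, had an unadjusted p under 0.05, beside 5.16% of all genes (3.77% higher). Without DAXX OE replicate 1 there were 3 higher and 1 lower (19.0%, beside 15.1% of all genes).

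Other short RNAs were set beside the snoRNAs. The 282 other small RNA genes had a median signal of 5.16 and a median difference of 0.04, with 4 higher and 13 lower in DSM OE at an unadjusted p under 0.05. The 1056 microRNA genes had a median signal of 4.92 and a median difference of -0.12, with 25 higher and 47 lower. Of all genes, 3.77% were higher and 1.38% lower at that p, and genes between background and the gene median had a median difference of -0.09. Without DAXX OE replicate 1 the medians were -0.02 and -0.02. With the 6 arrays 0 genes of either list passed the adjusted threshold, and without DAXX OE replicate 1 there were 1 of the small RNA genes (lower in DSM OE) and 6 of the microRNA genes (2 higher and 4 lower), beside 1.25% of all genes.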

How the data were processed

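The authors deposited log2 RMA signals of GeneChip Human Transcriptome Arrays 2.0, made with Affymetrix Expression Console 1.3 according to the submitters' processing notes. ComBat batch correction stands in the study's methods, but the sources used here do not say if these 6 arrays underwent it, and no batch is labelled. Such signals carry no counting depth, and precision is limited by the number of arrays. The labels disagree on the culture vessel. Clusters with 1 symbol entry were kept. Each gene was represented by its brightest cluster over the 6 arrays (6 members had more than 1). No dim gene was removed. The fit over 22465 genes used limma 3.58.1 in R 4.3.3 (lmFit, eBayes, 2-sided, group only), with Benjamini-Hochberg adjustment over all genes and a threshold of 0.05. Every adjusted p comes from limma.

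Named genes were members past the threshold, the 4 largest non-overlapping differences in each direction above the gene median in the 2 main classes (filled by unadjusted p), the extremes and the brightest copy of SNORD115 and SNORD116, the 4 brightest genes of the main classes, snoRNAs of rRNA processing, core proteins and hosts. SNORD90, the SNORD113 and SNORD114 copies, SNORA38B, SNORA2B, SNORD12C and the snoRNAs of NCL and NOP58 were named outside this rule, with their values known. The members and lists were chosen with earlier results of these data known. Hosts came from positions in RefSeq GRCh38.p14, without strand. The alternatives were other normalizations, filters, gene summaries, moderation, array weights, a replicate block, leaving out each array, and the methods' t-test. Sequences of the members are not printed.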

Additional observations from a re-analysis of the deposited data

How the results depend on the processing

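The count of snoRNA genes past the adjusted threshold, 0 with the 6 arrays, stayed at 0 under 17 of 19 alternatives, and ranged from 0 to 1 when 1 array was left out. The 1 call was SNORD93 without DAXX OE replicate 1. With array weights, where the estimation of the weights did not converge, the count was 105 (64 higher and 41 lower in DSM OE), or 44.3% of the members beside 43.1% of all genes. The count past the study's fold and p thresholds, 6 with the 6 arrays, was 22 with the replicate block (9.28% of members beside 4.27% of all genes), 3 after quantile normalization (1.27% beside 1.55%), 19 with array weights (8.02% beside 2.16%), 1 among genes above the gene median (93 members tested, 1.08% beside 2.59%) and 1 by the methods' t-test (0.422% beside 1.1%). Leaving out 1 array it ranged from 1 to 32, with 1 without DAXX OE replicate 1 (0.422% beside 1.07% of all genes), 21 without replicate 2 (8.86% beside 4.23%) and 32 without replicate 3 (13.5% beside 7.93%). The labels number the arrays, and deviations of same-numbered arrays correlated at -0.05, -0.30 and 0.17. Deviations from a group mean depend on each other, and DAXX OE replicate 1 departs strongly. These values therefore cannot decide if the numbers pair the arrays. With the replicate block 0 members passed the adjusted threshold, beside 40 of all genes (0.178%). Class medians ranged from -0.05 to 0.09 for the other SNORD genes, 0.01 to 0.18 for SNORA and -0.11 to -0.00 for SNORD116. The SNORD115 median was -0.28 among genes above background, where 1 copy was left, and otherwise -0.10 to 0.05. Of the 34 snoRNAs named by the rule, 15 changed sign under some alternative, 10 of them without DAXX OE replicate 1. With array weights 3 protein-coding genes with small differences turned: WDR43 to -0.11, SNX5 to -0.082 and NAF1 to -0.088. The causes were not tested.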

Other observations

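The 106 clusters that list a snoRNA symbol among more than 1 entry were outside the comparison. In 78 of them another gene, often the host, is among the symbols, and 28 hold snoRNA symbols only. They had a median difference of 0.10 (DSM OE minus DAXX OE), and 0.03 without DAXX OE replicate 1, with a range of -0.30 to 0.48. Some sets of symbols recur in several clusters, so that the 106 clusters hold 82 distinct sets. In 16 sets (19.5%) at least 1 cluster was higher in all DSM OE arrays than in all DAXX OE arrays, and in 1 set a cluster was lower. Of all genes 13.7% were higher. The clusters were bright, with a median signal of 8.06, and of the 11232 genes above the gene median 2433 were higher. A set with several clusters also counts if any 1 of them does, so these shares are not strictly alike. Over the sets the median difference was 0.08, and 0.01 without DAXX OE replicate 1. The cluster of GAS5, a noncoding host of many C/D box snoRNAs, gave 8.14, 8.04 and 8.25 in DSM OE against 7.88, 8.41 and 8.24 in DAXX OE. The cluster of RPL13A, a ribosomal protein gene that holds SNORD32A, SNORD33, SNORD34 and SNORD35A, gave 9.69, 9.66 and 9.67 in DSM OE against 9.48, 9.64 and 9.68 in DAXX OE. The cluster of SNORA73B, a copy of U17 that acts in cleavage of the rRNA precursor, gave 12.25, 12.22 and 12.24 in DSM OE against 12.15, 12.32 and 12.31 in DAXX OE. All 3 overlapped between the groups.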
